A study of Mus musculus with 9 samples.

Results

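Lipid droplet proteins and fatty acid uptake were examined in liver through 10 genes chosen by name: the perilipins Plin2, Plin4 and Plin5, the CIDE proteins Cidea, Cideb and Cidec, the triglyceride lipase Pnpla2 with its inhibitors G0s2 and Hilpda, and the fatty acid translocase Cd36. These genes were read by 14 of the 45037 probe sets tested, with 2 probe sets for Plin5, 2 for Pnpla2 and 3 for Cd36. Where a gene had several, the brightest, that with the highest mean over all arrays, stood for it, as for the 18193 genes with a symbol on the array. Values were log2 expression after robust multi-array average (RMA) normalization, so a difference of 1 is a doubling.

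The 9 arrays held liver RNA of female C57BL/6J mice, 3 per group. Tylosin mice drank the macrolide tylosin (0.333 mg/mL, giving 50 mg/kg per day) and amoxicillin mice drank the beta-lactam amoxicillin (0.167 mg/mL, giving 25 mg/kg per day) in 3 pulses of early-life pulsed antibiotic treatment (PAT), on days 10 to 15, 28 to 31 and 37 to 40 of life. Control mice received no antibiotic, and all groups, controls included, were later fed high-fat chow, so that no lean liver was available to compare with. Livers were taken long after the last pulse, at 22 weeks by the protocol and 24 weeks by the sample labels. Litter mates shared a cage and a treatment, and each group came from more than a single litter, kept apart by cage. The litter of each array is not given, so the p-values measure only the spread between these arrays.

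A lipid droplet is a core of triglyceride under a single layer of phospholipid, which carries the perilipins as a coat. Perilipins limit the access of lipases to the core, CIDE proteins let one droplet grow by drawing lipid from another, and Pnpla2 encodes adipose triglyceride lipase, which takes the first fatty acid off each triglyceride. Transcripts of many of these genes are known targets of the fatty acid-sensing PPAR receptors, and Cd36 and the fat-specific Cidec are known for their rise in mouse livers that store fat.

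The arrays were those of liver, with Alb between 14.64 and 14.71 in all 9. Intestinal and smooth muscle transcripts were high in tylosin replicate 2 and amoxicillin replicate 1, where the gut lectin Reg3b was 9.72 and 10.18 and the smooth muscle actin Acta2 was 8.14 and 8.05. Reg3b was also 7.75 in tylosin replicate 1, and it was 3.07 to 3.15 in control arrays. Tylosin replicate 3 had the highest Marco, a macrophage scavenger receptor (10.95), and the lowest Clec4f, a Kupffer cell marker (7.50). Of 7 measured adipocyte markers, 2 were above a log2 value of 6 in any array, and the defining adipocyte hormones Adipoq and Lep stayed at 2.46 to 2.99 and 2.94 to 3.37. In whole liver, fewer cells of a type and less RNA per cell cannot be told apart.

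No gene of the group changed by the rule of the study, which called a probe set at an unadjusted P under 0.01 in limma with an absolute log2 fold change over 0.5. With tylosin against control, 0 of the 14 probe sets were called, where 1.42% of all probe sets were. With amoxicillin against control, 0 of 14 were called, where 1.35% of all were. With tylosin against amoxicillin, 0 of 14 were called, where 0.0933% of all were. A count of 0 among 14 probe sets lies at the background of each comparison. At an unadjusted p under 0.05, limma found 0, 1 and 0 of the 14 probe sets in these comparisons, and 6722, 6657 and 1335 of all, and no probe set on the array had a Benjamini-Hochberg adjusted p under 0.05. The 95% intervals of the 14 probe sets reached between 0.23 (Cideb) and 0.76 (the dimmest Cd36 probe set) to either side of the log2 fold change.

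**Figure D1:**
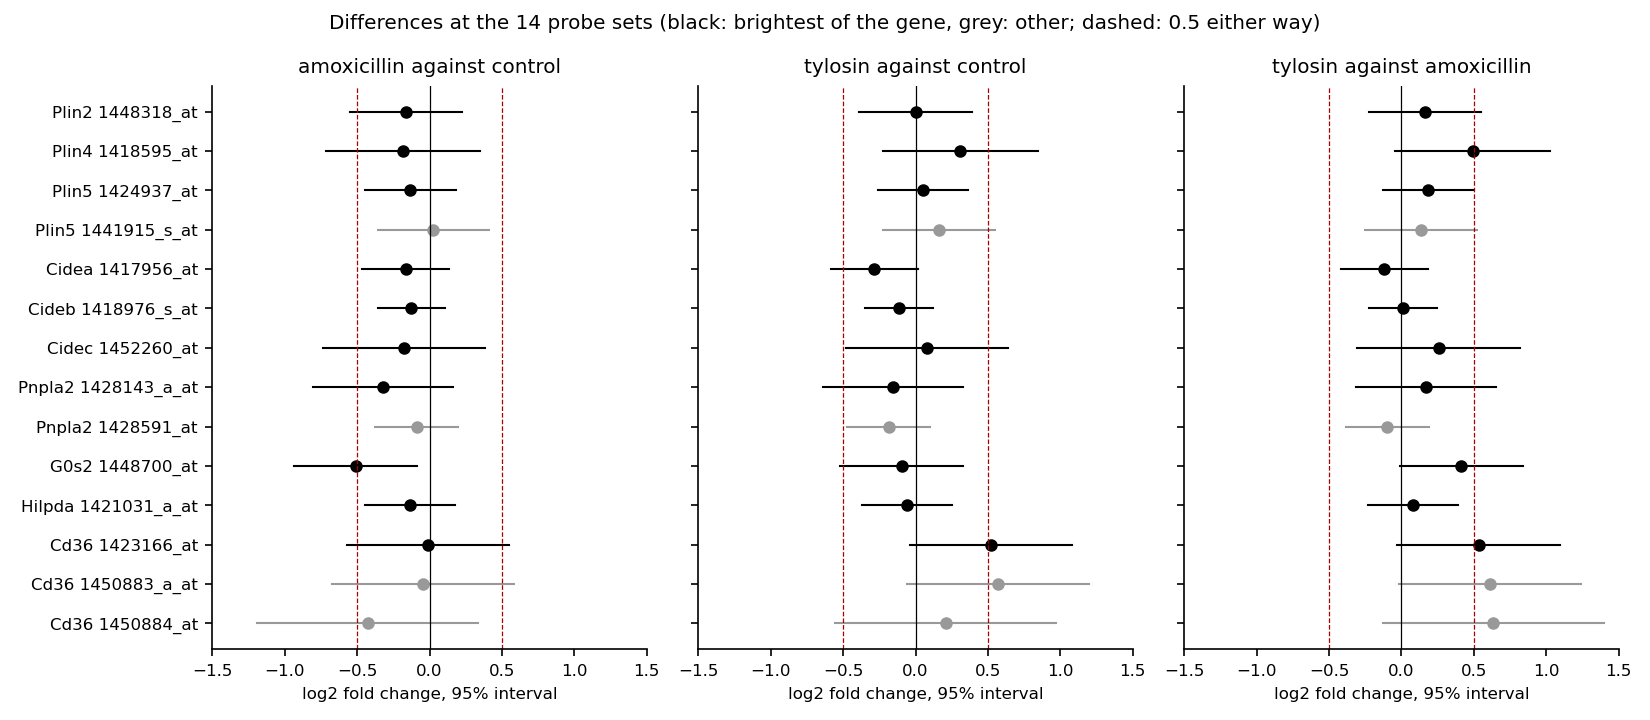
Log2 fold change of each of the 14 probe sets (points) with its 95% interval (lines) with 1 panel for each of the 3 comparisons of groups, black for the brightest probe set of a gene and grey for the others, with dashed lines at 0.5 either way. The interval that lies wholly on one side of 0 is that of G0s2 with amoxicillin, -0.93 to -0.085.

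Among the perilipins, no member was separated between groups. Plin2, the perilipin of all tissues and the main coat protein of the fatty hepatocyte, had 12.48, 12.28 and 12.67 with tylosin, 11.94, 12.28 and 12.71 with amoxicillin, and 12.60, 12.46 and 12.37 in control mice. The 3 groups overlapped, and both the lowest and the highest Plin2 value were in the amoxicillin group. Plin2 averaged 12.48 ± 0.19 with tylosin, 12.31 ± 0.38 with amoxicillin and 12.48 ± 0.12 in control mice (SD, n = 3 each). Its log2 fold change was -0.00013 with tylosin (95% interval -0.39 to 0.39) and -0.16 with amoxicillin (-0.55 to 0.23).

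Plin4, a perilipin of adipocytes and muscle, varied more between mice than Plin2. It had 6.49, 7.45 and 7.04 with tylosin, 6.18, 6.58 and 6.75 with amoxicillin, and 6.68, 6.37 and 7.003 in control mice. Values of tylosin replicates 2 and 3 stood above every other array, while tylosin replicate 1 lay among the rest. The log2 fold change of Plin4 was 0.31 with tylosin against control (interval -0.23 to 0.84), -0.18 with amoxicillin against control (-0.72 to 0.35) and 0.49 with tylosin against amoxicillin (-0.043 to 1.03). Tylosin against control gave 0.081 without tylosin replicate 2, an array high in intestinal transcripts. It gave 0.56 without tylosin replicate 1, where Reg3b also stood above the control arrays. It gave 0.15 when control replicate 2 was left out and 0.47 when control replicate 3 was. Without tylosin replicate 1 the difference between the antibiotics was 0.74 and met the calling rule (limma adjusted p = 1). Without both tylosin replicate 2 and amoxicillin replicate 1, the arrays highest in intestinal transcripts, that difference was 0.10. Tylosin replicate 2 also held the highest Plin4 value of all arrays and amoxicillin replicate 1 the lowest. The part of intestinal tissue in the Plin4 values was not tested.

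Plin5, which couples droplets to mitochondria in tissues that burn fat, had 9.98, 10.26 and 10.15 with tylosin, 9.80, 9.84 and 10.20 with amoxicillin, and 9.99, 9.92 and 10.32 in control mice at its brightest probe set, 1424937_at. The groups overlapped. The second probe set, 1441915_s_at, ran from 9.95 to 10.33 with tylosin, 9.71 to 10.19 with amoxicillin and 9.57 to 10.12 in control mice. With tylosin the 2 probe sets gave log2 fold changes of 0.053 and 0.16 against control, and with amoxicillin -0.13 and 0.027, so for amoxicillin they differed in sign, with both intervals holding 0.

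Plin4 and Plin5 lie next to each other on chromosome 17 of GRCm38.p6, at chr17:56100587-56109948 and chr17:56111597-56117606, with 1648 bases between them. Their RefSeq promoter windows, 250 bases before to 50 after a start, are shown because the pair varied together across mice, with that of Plin2 beside them as the main perilipin of hepatocytes. Plin2 is read at chr4:86670010-86670309, Plin4 at chr17:56109733-56110032, and Plin5 from 2 starts at chr17:56117249-56117548 and chr17:56117499-56117798. All are printed 5′ to 3′ along the minus strand, the strand of the gene, with capitals for the nuclear receptor half-site AGGTCA on either strand (read as TGACCT on the other).
Plin2: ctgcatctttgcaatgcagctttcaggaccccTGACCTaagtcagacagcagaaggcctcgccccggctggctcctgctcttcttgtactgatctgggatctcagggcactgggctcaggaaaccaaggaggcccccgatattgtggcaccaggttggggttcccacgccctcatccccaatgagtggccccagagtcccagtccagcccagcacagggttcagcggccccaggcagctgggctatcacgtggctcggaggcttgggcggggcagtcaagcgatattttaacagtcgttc
Plin4: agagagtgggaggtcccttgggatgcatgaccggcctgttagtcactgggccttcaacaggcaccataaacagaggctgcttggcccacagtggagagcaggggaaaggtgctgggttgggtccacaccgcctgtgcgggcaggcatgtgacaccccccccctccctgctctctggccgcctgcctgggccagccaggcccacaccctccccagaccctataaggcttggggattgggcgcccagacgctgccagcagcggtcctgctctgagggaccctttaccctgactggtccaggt
Plin5, downstream start: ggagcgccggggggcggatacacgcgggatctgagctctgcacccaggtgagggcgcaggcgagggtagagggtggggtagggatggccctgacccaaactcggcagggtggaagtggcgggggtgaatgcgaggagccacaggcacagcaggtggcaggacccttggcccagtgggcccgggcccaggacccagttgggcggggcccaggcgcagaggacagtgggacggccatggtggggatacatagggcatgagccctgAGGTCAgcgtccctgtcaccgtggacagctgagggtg
Plin5, upstream start: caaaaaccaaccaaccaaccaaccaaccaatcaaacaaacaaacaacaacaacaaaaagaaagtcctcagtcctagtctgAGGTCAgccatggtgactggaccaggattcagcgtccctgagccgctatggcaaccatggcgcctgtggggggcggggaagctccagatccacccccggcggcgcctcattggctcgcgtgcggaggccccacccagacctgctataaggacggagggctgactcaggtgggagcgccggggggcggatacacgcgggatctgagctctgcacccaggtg
The half-site began at -218 from the start of Plin2, and at 14 and -170 from the 2 starts of Plin5. Plin4 had none in its window. Of 10 genes, 9 had a window in the table, 12 windows in all, and 3 genes (Plin2, Plin5 and Cd36) held the half-site, in 4 windows, where 16.3% of all 32851 mouse windows of this length hold it. A pair of AGGNCA half-sites 1 base apart, the arrangement PPAR receptors are known to bind, was found in 0 of the 12 windows and in 0.381% of all windows. A match of letters is a description, and its absence from a window of this length says nothing of binding elsewhere.

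**Figure D2:**
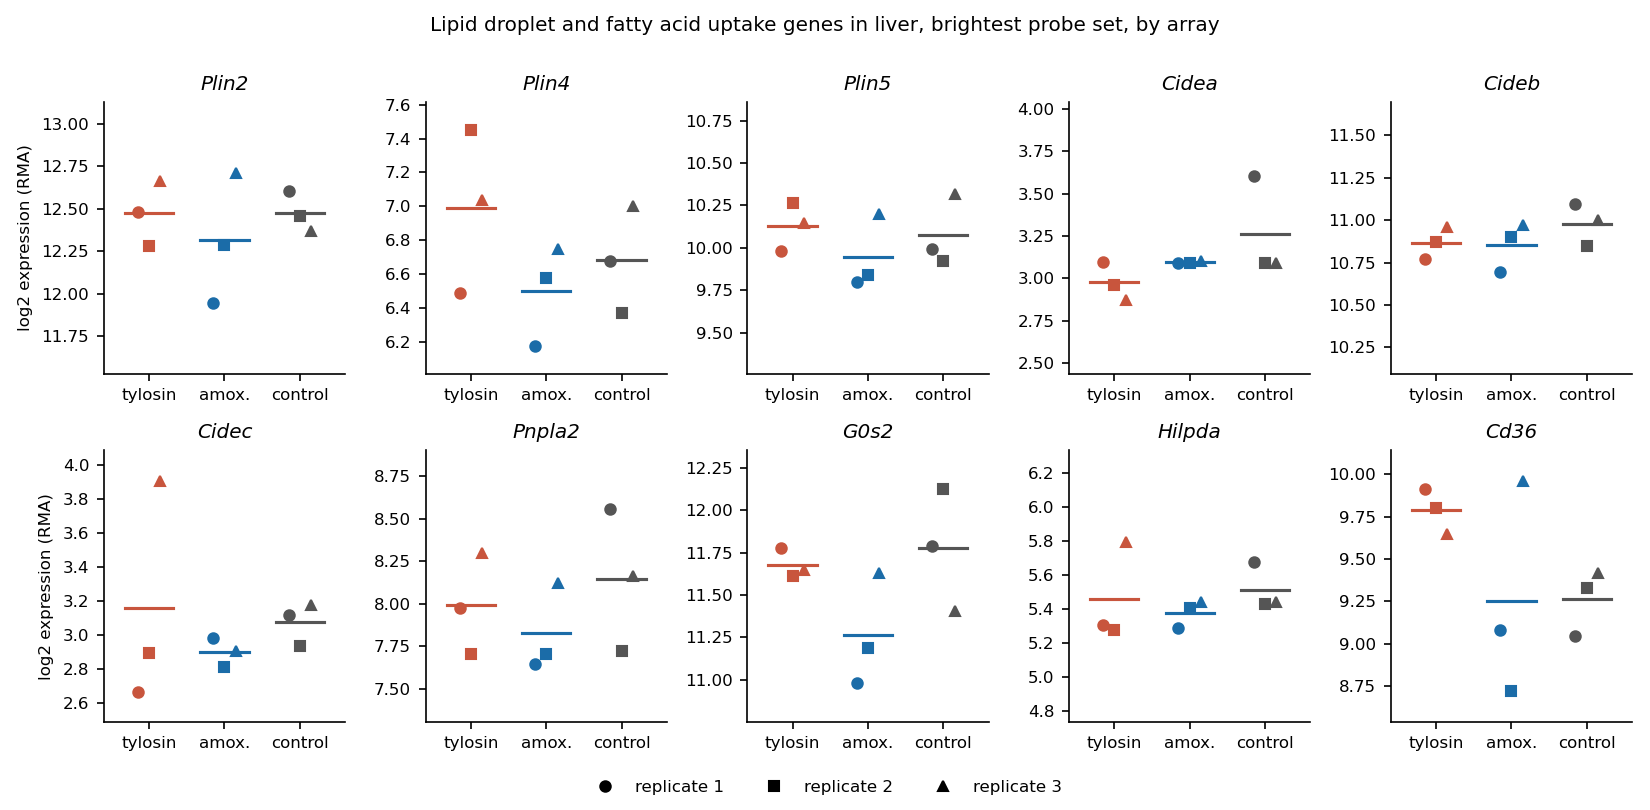
Log2 expression of the 10 genes at their brightest probe set in each array, with tylosin, amoxicillin (amox.) and control side by side, symbols for the replicate number and lines for group means, and the same log2 span in every panel. The tylosin arrays of Cd36 (9.65 to 9.91) lie above its control arrays (9.05 to 9.42), a separation that 15.9% of all probe sets on the array show in one direction or the other.

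Of the CIDE proteins, Cideb was well expressed, and Cidea and Cidec were at the level of the background of the array. Cideb, the liver member of the family, which also serves the loading of lipid onto VLDL, had 10.77, 10.87 and 10.96 with tylosin, 10.70, 10.90 and 10.97 with amoxicillin, and 11.09, 10.85 and 10.999 in control mice. These were the tightest values among the 10 genes, with a range of 0.40 over the 9 arrays, and the groups overlapped. The log2 fold change of Cideb was -0.11 with tylosin (interval -0.35 to 0.12) and -0.12 with amoxicillin (-0.36 to 0.11), so a change of 0.5 was outside both intervals.

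Cidec, the fat-specific member known for its rise in steatotic mouse liver, had 2.67, 2.90 and 3.91 with tylosin, 2.99, 2.81 and 2.90 with amoxicillin, and 3.12, 2.93 and 3.18 in control mice. The value in tylosin replicate 3 stood 0.73 above the next highest array, and still lay below the median of all probe sets of its array, as did Cidec in all 9 arrays. Without tylosin replicate 3 the log2 fold change of Cidec with tylosin was -0.29, against 0.082 (interval -0.48 to 0.64) over all arrays. Tylosin replicate 3 was also the array with the highest summed adipocyte and macrophage marker levels: log2 sums of the 7 adipocyte markers were 8.27 to 8.995 with tylosin, 8.19 to 8.43 with amoxicillin and 8.10 to 8.25 in control mice, and those of the 8 macrophage markers were 12.50 to 13.25, 12.25 to 12.80 and 12.23 to 12.83. With tylosin against control, 3 of the 7 adipocyte markers and 3 of the 8 macrophage markers were lower. The part of either cell type in the Cidec value was not tested.

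Cidea, the brown fat member, had 3.10, 2.96 and 2.87 with tylosin, 3.09, 3.09 and 3.11 with amoxicillin, and 3.60, 3.09 and 3.09 in control mice. Control replicate 1 was the one high array, and Cidea lay below the array median in all 9. Its log2 fold change was -0.28 with tylosin (limma adjusted p = 0.36) and -0.17 with amoxicillin, and values this low carry mostly the background of the array. No call was made for Cidea or Cidec, and the data do not show that either transcript was present.

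The lipase and its inhibitors included the gene with the smallest p against control. Pnpla2 had 7.98, 7.70 and 8.30 with tylosin, 7.65, 7.71 and 8.12 with amoxicillin, and 8.56, 7.72 and 8.16 in control mice at its brightest probe set, 1428143_a_at. The groups overlapped, with the highest value in control replicate 1. Its log2 fold change was -0.15 with tylosin (interval -0.64 to 0.33) and -0.32 with amoxicillin (-0.81 to 0.16). The amoxicillin value was -0.12 without control replicate 1 and -0.53 without control replicate 2. The dim second probe set, 1428591_at, at 4.04 to 4.51 over the 9 arrays, gave -0.19 and -0.089.

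G0s2, the G0/G1 switch protein that binds and inhibits the lipase, had 11.78, 11.61 and 11.65 with tylosin, 10.98, 11.19 and 11.63 with amoxicillin, and 11.79, 12.12 and 11.41 in control mice. Amoxicillin replicates 1 and 2 lay below all other arrays, but amoxicillin replicate 3 lay above control replicate 3, so the groups overlapped. G0s2 averaged 11.68 ± 0.09 with tylosin, 11.26 ± 0.33 with amoxicillin and 11.77 ± 0.36 in control mice (SD, n = 3 each). Its log2 fold change with amoxicillin was -0.51 (SE 0.19, interval -0.93 to -0.085), which is 0.703-fold, with a limma unadjusted P of 0.0231 and an adjusted p of 0.287. It met the size limit of the calling rule but not its limit on P. Leaving out control replicate 3 gave -0.69, and leaving out amoxicillin replicate 3 also gave -0.69, and both then met the rule (limma adjusted p = 0.30 and 0.45). Leaving out control replicate 2 gave -0.33. Without both amoxicillin replicate 1 and tylosin replicate 2, the arrays highest in intestinal transcripts, the value was -0.37. The part of intestinal tissue in the G0s2 values was not tested. With tylosin the log2 fold change of G0s2 was -0.097 against control (-0.52 to 0.33) and 0.41 against amoxicillin (-0.012 to 0.84). The last was 0.59 and met the rule without amoxicillin replicate 3 (limma adjusted p = 1).

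Hilpda, a hypoxia-inducible inhibitor of the same lipase, had 5.30, 5.28 and 5.79 with tylosin, 5.29, 5.41 and 5.44 with amoxicillin, and 5.67, 5.43 and 5.44 in control mice. It stayed below 6 on the log2 scale in every array and above the array median in each. The highest value was again in tylosin replicate 3, and the groups overlapped, with log2 fold changes of -0.057 for tylosin (interval -0.37 to 0.25) and -0.14 for amoxicillin (-0.45 to 0.17). Pnpla2 and both inhibitors gave negative log2 fold changes with each antibiotic, none of them called, and only the amoxicillin interval of G0s2 left out 0.

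Cd36, the scavenger receptor that takes long-chain fatty acids into cells, had the largest log2 fold change of the 10 genes with tylosin, and it was not called. At its brightest probe set, 1423166_at, it had 9.91, 9.80 and 9.65 with tylosin, 9.08, 8.72 and 9.96 with amoxicillin, and 9.05, 9.33 and 9.42 in control mice. All tylosin arrays lay above all control arrays, whereas the amoxicillin group held both the lowest and the highest value. At 1450883_a_at it had 9.65, 9.31 and 9.12 with tylosin, 8.55, 8.18 and 9.51 with amoxicillin, and 8.54, 8.95 and 8.88 in control mice, with the same separation of tylosin from control. At 1450884_at it had 6.99, 6.76 and 6.81 with tylosin, 5.91, 5.51 and 7.24 with amoxicillin, and 6.39, 6.76 and 6.79 in control mice, where tylosin and control overlapped. The 2 probe sets that separated tylosin from control were the only ones of the 14 to do so, where 15.9% of all probe sets on the array did, so that 2 of 14 is no more than the background share. No probe set of the 10 genes separated amoxicillin from control or tylosin from amoxicillin, where 19.2% and 6.27% of all did.

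Cd36 averaged 9.79 ± 0.13 with tylosin, 9.25 ± 0.64 with amoxicillin and 9.27 ± 0.19 in control mice (SD, n = 3 each) at the brightest probe set. With tylosin against control its log2 fold change was 0.52 (SE 0.25, interval -0.039 to 1.08), or 1.44-fold, with a limma adjusted p of 0.365. The other probe sets gave 0.57 (interval -0.057 to 1.20) and 0.21 (-0.55 to 0.97). Against amoxicillin, tylosin gave 0.53, 0.61 and 0.63 at the 3 probe sets, and amoxicillin against control gave -0.011, -0.043 and -0.43, all with intervals that held 0. The spread of the amoxicillin arrays, with an SD of 0.64, entered the shared variance of every comparison: with only tylosin and control in the fit the log2 fold change of 0.52 and that of 1450883_a_at met the calling rule (limma adjusted p = 0.32 and 0.33), and so they did without amoxicillin replicate 3 (0.26 and 0.27). Without that array tylosin exceeded amoxicillin by 0.89, 0.996 and 1.15 at the 3 probe sets, each meeting the rule (limma adjusted p = 1, 1 and 0.73), and amoxicillin was below control by a log2 fold change of -0.94 at 1450884_at (adjusted p = 0.45), also past the rule.

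Macrophages, endothelium and adipocytes also express Cd36. Tylosin replicate 3, with the highest summed macrophage markers (13.25), had the lowest Cd36 of the tylosin arrays at the brightest probe set. Log2 sums of the 6 endothelial markers were 9.89 to 10.26 with tylosin, 9.97 to 10.12 with amoxicillin and 9.68 to 9.96 in control mice. Tylosin and control overlapped, and the lowest amoxicillin sum, 9.969, lay narrowly above the highest control sum, 9.961. In tylosin replicates 1, 2 and 3 the endothelial sums were 10.26, 10.21 and 9.89, in the same order as Cd36 at 1423166_at and 1450883_a_at. The order differed at 1450884_at. Sums in replicates 1, 2 and 3 were 9.915, 9.677 and 9.961 in control mice and 10.12, 9.97 and 10.05 with amoxicillin, in another order than Cd36 at 1423166_at. With tylosin, 6 of 6 endothelial markers had a positive log2 fold change, where 46.7% of all genes did. Their median was 0.26 against -0.015 over all genes, and 0 were called. With amoxicillin, where the log2 fold change of Cd36 was -0.011 at 1423166_at, 6 of 6 were also positive, against 44.6% of all genes. The median with amoxicillin was 0.13 against -0.025. Log2 sums of the adipocyte markers were narrowly apart, with 8.265 as the lowest tylosin sum and 8.25 as the highest control sum. Of the 7 adipocyte markers, 3 were lower with tylosin than in control mice. Fabp4, also a gene of macrophages, and Pparg were the members above 6, and Adipoq and Lep lay below the array median. The part of these cells in the Cd36 values was not tested.

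The RefSeq promoter window of Cd36, chr5:17835847-17836146 on the minus strand, lies within the annotated span of the gene at chr5:17781690-17888959, and is shown for the half-site, in capitals, that begins at -228 from its start.
Cd36: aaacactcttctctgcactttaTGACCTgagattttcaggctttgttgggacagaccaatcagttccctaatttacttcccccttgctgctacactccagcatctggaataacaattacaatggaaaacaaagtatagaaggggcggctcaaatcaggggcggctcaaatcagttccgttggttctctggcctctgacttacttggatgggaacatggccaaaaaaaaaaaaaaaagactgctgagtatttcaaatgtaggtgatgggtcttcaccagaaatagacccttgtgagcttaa

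**Figure D3:**
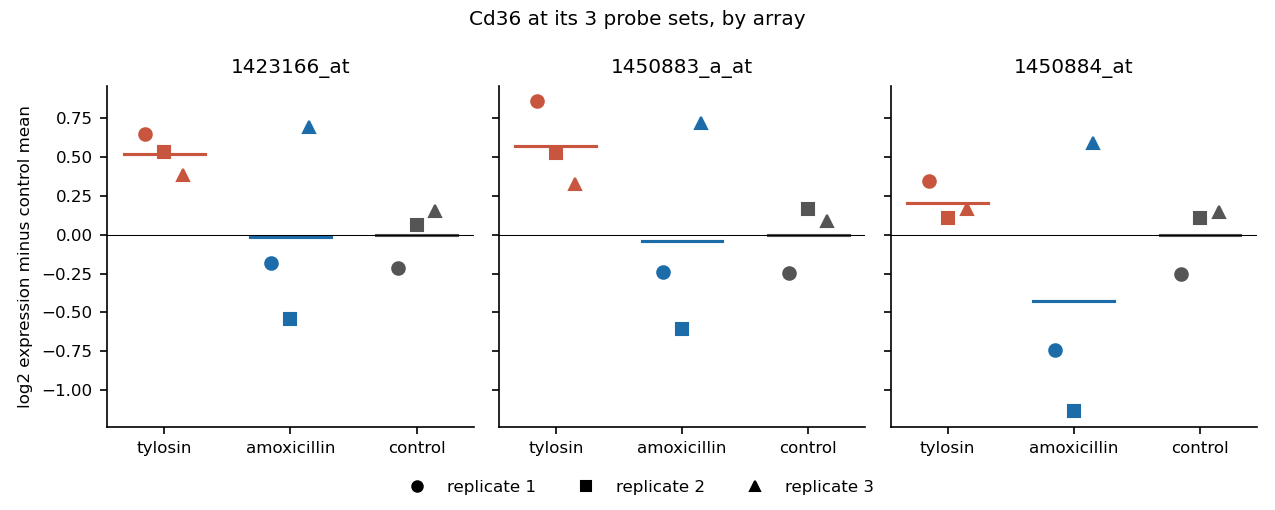
Log2 expression of Cd36 minus the control mean at each of its 3 probe sets, by array, with symbols for the replicate number and lines for group means. Amoxicillin replicate 3 lies 1.24 above amoxicillin replicate 2 at 1423166_at. The SD of the tylosin arrays is 0.13 there and 0.27 at 1450883_a_at, where that of the control arrays is 0.19 and 0.22.

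Across the 10 genes, log2 fold changes with tylosin against control were higher for 4 genes and lower for 6, with a median of -0.029, against -0.015 over all 18193 genes. With amoxicillin against control they were negative for 10 of 10 genes, with a median of -0.16 against -0.025 over all genes, of which 55.3% were lower. With tylosin against amoxicillin they were positive for 9 of 10 genes, with a median of 0.18 against 0.0095 over all genes, of which 53.4% were higher. Without tylosin replicate 3 the last count was 6 of 10 with a median of 0.041, and without amoxicillin replicate 1 it was 7 of 10 with a median of 0.095. The 3 comparisons share their arrays, so these counts are not separate from one another. When the arrays were centred on their medians, 9 of 10 genes were lower with amoxicillin, Cd36 being the exception at 0.042. The 10 genes include Cidea and Cidec, at the background of the array, and the second Plin5 probe set gave 0.027 with amoxicillin. Among probe sets over 6 in at least 3 arrays, 7 of 7 genes were lower with amoxicillin. Their median was -0.16, against 0.063 over all genes kept.

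The shift with amoxicillin differed between its arrays. Amoxicillin replicate 1 was the lowest of the 9 arrays for 6 of the 10 genes (Plin2, Plin4, Plin5, Cideb, Pnpla2 and G0s2), with a median deviation of -0.30 from the mean over the arrays. Amoxicillin replicate 2 had a median deviation of -0.18 and amoxicillin replicate 3 one of 0.063. Without amoxicillin replicate 1, 8 of 10 genes were lower than in control mice and the median was -0.074, against -0.16 with all arrays. Leaving out amoxicillin replicate 3 instead gave 10 of 10 lower and a median of -0.28. Amoxicillin replicate 1 also had the widest 3′ to 5′ difference of the Gapdh control probe sets, a sign of shorter RNA, at a log2 difference of 0.54, against 0.23 to 0.43 in control arrays, and an Actb difference of 1.57, against 1.29 to 1.40. Tylosin replicate 2, with a median deviation of -0.086, had 0.53 for Gapdh and the widest Actb difference, 1.73. Amoxicillin replicate 2, with its median deviation of -0.18, had 0.31 for Gapdh and 1.39 for Actb, both within the range of the control arrays. Amoxicillin replicate 3, with its median deviation of 0.063, had 0.39 for Gapdh and an Actb difference of 1.57. The part of RNA quality in these values was not tested. Amoxicillin replicate 1 had the highest log2 sums of intestinal markers, 11.94 among 11.24 to 11.94 with amoxicillin, against 11.21 to 11.86 with tylosin and 11.19 to 11.51 in control mice. Much of each sum was Fabp2, at 11.03 to 11.62 with amoxicillin, 10.9 to 11.415 with tylosin and 11.04 to 11.40 in control mice. In amoxicillin replicate 1 the log2 sum of stellate and smooth muscle markers was 9.71, and that of tylosin replicate 2 was 9.67, where the other arrays had 8.41 to 8.80. Tylosin replicate 2 was the highest array for Plin4 and the lowest for Hilpda.

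**Figure D4:**
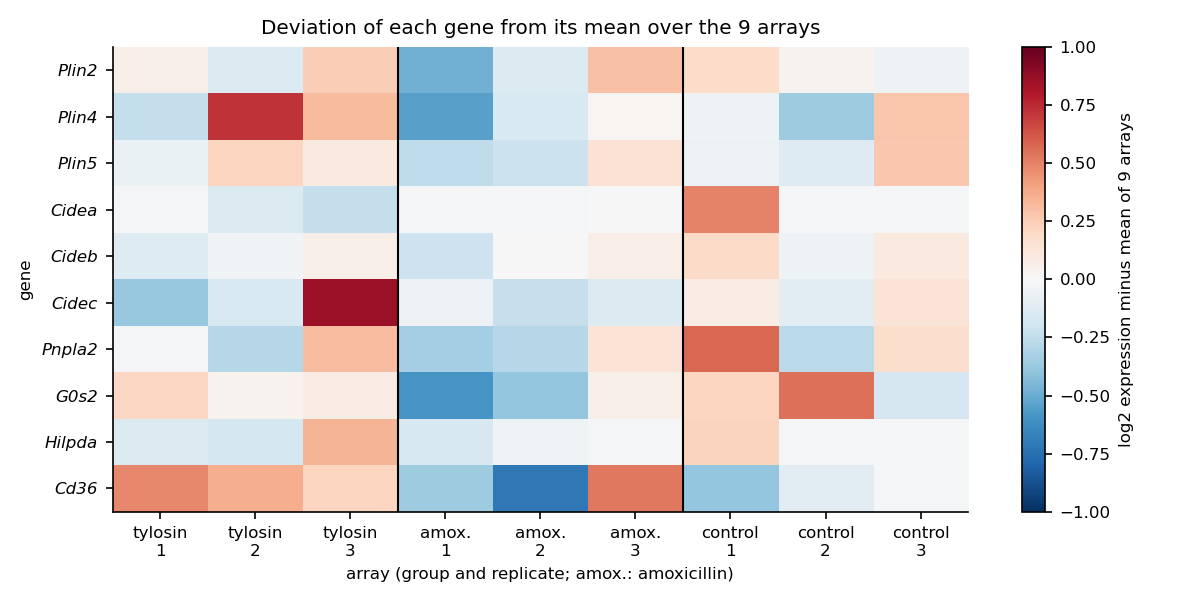
Deviation of each gene, at its brightest probe set, from its mean over the 9 arrays in log2 units, with arrays as columns and genes as rows. The column of amoxicillin replicate 1 is negative for most genes, with a median of -0.30, and Cidec in tylosin replicate 3 is the deepest positive cell.

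Most pairs of the genes varied in the same direction between mice. Of the 45 pairs, 39 had a positive Pearson r over the 9 arrays, with a median of 0.34 and a range of -0.40 to 0.85. The pairs share genes, so they are not separate from one another, and the share among other gene pairs of the array was not measured. Pairs with Cidea or Cidec rest on values at the background of the array. An exact permutation test over the arrays gave 8 pairs with an unadjusted p under 0.05 and 0 after Benjamini-Hochberg adjustment over the 45 pairs, the smallest adjusted p being 0.101. The highest was that of the neighbours Plin4 and Plin5, with r = 0.85 (exact permutation p = 0.00308, adjusted 0.101) and Spearman rho = 0.87 (exact permutation p = 0.00451, adjusted 0.101). Without the 2 arrays farthest from the median of Plin4, r was 0.80, and within groups, as deviations from each group mean, it was 0.84. Pnpla2 went with its inhibitor Hilpda, with r = 0.79 (exact permutation p = 0.00895, adjusted 0.101) and rho = 0.91 (exact permutation p = 0.00132, adjusted 0.0595), and r was 0.68 without the 2 arrays farthest from the median of Pnpla2. Cidec and Hilpda had r = 0.82, and 0.49 without the 2 farthest arrays, one of which was tylosin replicate 3, where both genes were highest. All genes of an array share its RNA and its normalization.

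**Figure D5:**
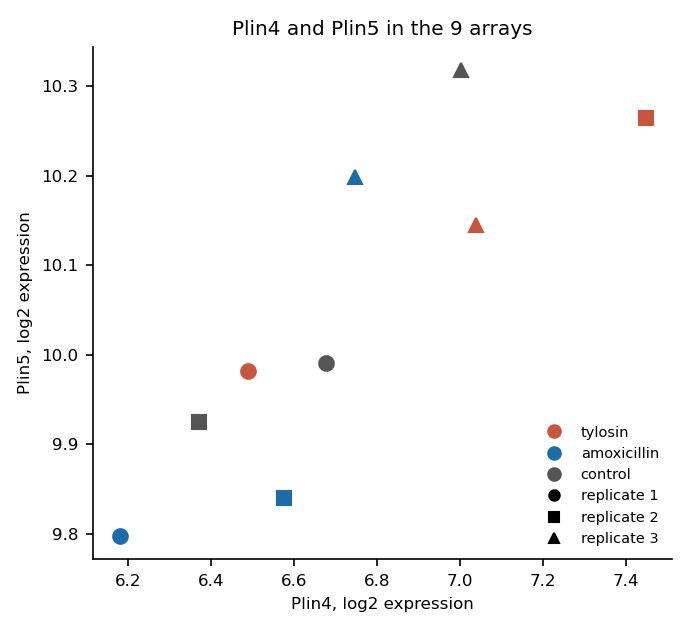
Log2 expression of Plin5 (vertical) against Plin4 (horizontal) in the 9 arrays, with colours for the group and symbols for the replicate number. The arrays run from amoxicillin replicate 1, lowest in both genes (6.18 and 9.80), to tylosin replicate 2 and control replicate 3, with all groups mixed along the way.

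Of 47 other genes of droplets, lipolysis and fatty acid uptake, 42 were measured, and 1 was called with tylosin against control, near the 1.42% of all probe sets called there. Lpl, lipoprotein lipase, which frees fatty acids from circulating triglyceride, had 8.46, 8.25 and 9.25 with tylosin, 8.41, 8.31 and 7.85 with amoxicillin, and 7.59, 8.04 and 7.49 in control mice. All tylosin arrays lay above all control arrays, a separation that 15.9% of all probe sets showed in one direction or the other. Lpl rose with tylosin against control by a log2 fold change of 0.95 (SE 0.25), with a limma unadjusted P of 0.00332 and an adjusted p of 0.192. The call was lost without control replicate 1 (0.89) and without control replicate 3 (0.84), and it held, at 0.65, without tylosin replicate 3. That array had the highest Lpl, 9.25, and also the highest log2 sums of macrophage (13.25), adipocyte (8.995) and leukocyte (9.14) markers. Leukocyte sums were 8.15 to 9.14 with tylosin, 7.94 to 8.46 with amoxicillin and 7.84 to 8.25 in control mice. Of the 5 leukocyte markers measured, 3 were lower with tylosin than in control mice. The part of macrophages, adipocytes and leukocytes in the Lpl values was not tested. With amoxicillin against control the log2 fold change of Lpl was 0.48 (limma adjusted p = 0.39). No other gene of these lists was called with tylosin, and 0 of 42 were called with amoxicillin against control or between the antibiotics.

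Within fatty acid uptake and binding, 19 of 22 genes were measured, and their median log2 fold change was 0.034 with tylosin and 0.079 with amoxicillin, against -0.015 and -0.025 over all genes. Vldlr, a receptor for triglyceride-rich particles, had a log2 fold change of 0.75 with tylosin (limma adjusted p = 0.31) and of 0.63 between tylosin and amoxicillin, from 8.25, 7.33 and 7.62 with tylosin, 7.21, 6.61 and 7.50 with amoxicillin, and 7.21, 6.38 and 7.38 in control mice. Fabp4, the fatty acid-binding protein of adipocytes and macrophages, had 7.21, 7.02 and 8.005 with tylosin, 7.31, 6.91 and 7.36 with amoxicillin, and 6.79, 6.89 and 6.81 in control mice. Both antibiotic groups lay above the control arrays, by log2 fold changes of 0.58 and 0.36 (limma adjusted p = 0.28 and 0.46), neither of them called. Of all probe sets, 15.9% separated tylosin from control and 19.2% separated amoxicillin from control, in either direction. Fabp5 had the largest difference between the antibiotics, -0.999 for tylosin against amoxicillin (limma adjusted p = 1), with an SD of 1.02 among the amoxicillin arrays and 1.17 among the control arrays. Acsl4, an acyl-CoA synthetase, had log2 fold changes of 0.45 with tylosin and 0.49 with amoxicillin (limma adjusted p = 0.43 and 0.40), with control arrays that spanned 6.89 to 8.29. Fabp1, the main fatty acid-binding protein of hepatocytes, was 14.09 to 14.27 with tylosin, 14.20 to 14.35 with amoxicillin and 14.20 to 14.30 in control mice.

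Of 10 droplet-resident proteins of liver and 7 genes of lipolysis, all measured, none was called. The pair Hsd17b13 and Hsd17b11, related droplet-bound dehydrogenases, was looked at after their values were seen. Hsd17b13 had 11.72, 11.61 and 11.93 with tylosin, 11.52, 11.43 and 11.66 with amoxicillin, and 11.34, 11.56 and 11.34 in control mice. Tylosin and control did not overlap, as for 15.9% of all probe sets, and amoxicillin and control overlapped. The log2 fold change of Hsd17b13 was 0.33 with tylosin (limma adjusted p = 0.24) and 0.12 with amoxicillin. Hsd17b11 had 12.34, 12.20 and 12.32 with tylosin, 12.17, 12.20 and 12.08 with amoxicillin, and 12.49, 12.50 and 12.51 in control mice. Its log2 fold change was -0.22 with tylosin and -0.35 with amoxicillin (limma adjusted p = 0.28 and 0.20), under the size limit of the calling rule. Abhd5, the activator of the lipase encoded by Pnpla2, was 7.10 to 7.19 with tylosin, 6.92 to 7.05 with amoxicillin and 7.10 to 7.33 in control mice, with a log2 fold change of -0.21 for amoxicillin (limma adjusted p = 0.33). Plin3, the remaining perilipin measured, had log2 fold changes of -0.0049 with tylosin and 0.14 with amoxicillin.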

How the data were processed

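Liver RNA of 9 mice was labelled with a 3′ IVT kit, and each sample was read on its own Affymetrix mouse array. Normalization by RMA was done by the authors, and the deposited values are log2 expression. The raw intensities were not used here, so background correction and normalization were taken as deposited. Array medians were 3.96 to 4.06, and the number of arrays, 3 per group, limits the precision.

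Of 45101 probe sets, 64 manufacturer's controls were left out. Gene names came from the platform annotation, in which 34958 probe sets carry 1 symbol, 932 several and 9211 are unnamed. A single limma fit (version 3.58.1, R 4.3.3) over all 9 arrays gave the 3 comparisons, and a call needed, after the study's methods, P under 0.01 before adjustment and a log2 fold change beyond 0.5 either way. Adjusted p-values are Benjamini-Hochberg over all 45037 probe sets, and intervals are 95%. The procedure was tested on simulated data. A promoter match is to letters of RefSeq windows on GRCm38.p6, and a log2 sum of a marker list is the log2 of its summed linear values. Figures were drawn with matplotlib 3.10.9.

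The genes and lists were chosen with earlier results of these data known. Named were all members, every called gene of the pathway lists, the 3 largest changes per comparison among those with a mean log2 value over 6, and the extreme markers; Hsd17b11, Hsd17b13, Abhd5, Plin3 and Fabp1 were added after their values were seen. Of the marker lists, the highest and lowest shifts were those of Reg3b and Clec4f with tylosin (3.73 and -0.62 against control), of Reg3b and Cd8a with amoxicillin (2.08 and -0.36), and of Reg3b and Clec4f between the antibiotics (1.65 and -0.54), and no marker of the 7 lists was called. Replicate numbers were not taken as pairs, since 2 of 9 same-numbered pairs of arrays had residual correlations over 0.1 (-0.245 to 0.151). Alternatives changed the threshold (adjusted p under 0.05, or a fold change over 1 on the log2 scale), the probe sets kept (over 6 in at least 3 arrays), the scaling (median centring, or quantile normalization), the variance model (trended and robust, array weights, only the 2 groups compared, or a replicate block), the probe sets of a gene (their mean), and the arrays, each left out in turn. Those for Lpl were added after its values were seen.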

Additional observations from a re-analysis of the deposited data

How the results depend on the processing

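Every count of calls among the 14 probe sets stayed at 0 under an adjusted p under 0.05, a log2 fold change over 1, the filter on dim probe sets (which kept 7 of the 10 genes), both scalings, the trended and robust variance and array weights. With only tylosin and control in the fit, 2 were called between them, both of Cd36. With the replicate block, 0 were called in each comparison and no gene changed direction, the G0s2 log2 fold change with amoxicillin being -0.51 (limma unadjusted P of 0.0377). Leaving out each array in turn gave 0 to 2 calls with tylosin against control, 0 to 2 with amoxicillin against control, and 0 to 4 between the antibiotics, the 4 without amoxicillin replicate 3 (Cd36 at 3 probe sets, and G0s2). The share of all probe sets called was not counted in the 2-group fit or in the fits without an array. These counts of calls therefore have no background beside them.

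Small log2 fold changes turned sign under some settings, and the cause was not tested. Median centring gave 0.050 for Plin2 with tylosin and 0.042 for Cd36 with amoxicillin. Array weights gave -0.055 for Cidec with tylosin, 0.042 for Cd36 with amoxicillin, and -0.031 for Cideb and -0.0064 for Hilpda between tylosin and amoxicillin. Without amoxicillin replicate 1 and tylosin replicate 2 together, the values were 0.097 for Plin2, -0.014 for Plin5 and 0.034 for Hilpda with tylosin, 0.021 for Plin2 and 0.075 for Cd36 with amoxicillin, and -0.069 for Cideb between the antibiotics.

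Over the arrays left out in turn, log2 fold changes that crossed 0 ran, with tylosin against control, from -0.095 to 0.097 for Plin2, -0.024 to 0.17 for Plin5, -0.29 to 0.33 for Cidec, -0.37 to 0.052 for Pnpla2, -0.28 to 0.079 for G0s2 and -0.22 to 0.034 for Hilpda. With amoxicillin against control they ran from -0.36 to 0.021 for Plin2, -0.25 to 0.0051 for Cidea and -0.36 to 0.26 for Cd36. Between tylosin and amoxicillin they ran from -0.022 to 0.36 for Plin2, -0.068 to 0.070 for Cideb, -0.12 to 0.50 for Cidec and -0.089 to 0.17 for Hilpda. The tylosin call of Lpl did not hold at an adjusted p under 0.05 or a log2 fold change over 1, and ran from 0.65 to 1.15 over the arrays left out. Cidea and Cidec, below the median of every array, and Hilpda, under 6 throughout, carry more background than the rest, and with 3 arrays a group a single array moved most values.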
